A study of Mus musculus with 51 samples.

Results

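The homeobox genes that pattern the dorsal forebrain and the neighbouring midbrain and hindbrain were examined for enhancer-type chromatin during astroglial differentiation. The 9 genes are Pax6, Emx1, Emx2, Lhx2, Otx1, Otx2, Gbx2, En1 and En2, out of the 22359 protein-coding genes in the mm9 annotation. Every peak that overlapped the body of one of these genes plus 50 kb on each side was taken. On mm9 the cortical genes lie at chr2:105509053-105543317 (Pax6, plus strand), chr6:85137432-85154456 (Emx1, plus), chr19:59533180-59539847 (Emx2, plus) and chr2:38194801-38225253 (Lhx2, plus). Otx1 lies at chr11:21894767-21902900 (minus), Otx2 at chr14:49277354-49287319 (minus), Gbx2 at chr1:91824537-91829865 (minus), En1 at chr1:122498995-122505873 (plus) and En2 at chr5:28492236-28500152 (plus). For aNPC, eA and lA in turn, this gave 48 of 79413, 48 of 83433 and 46 of 92700 H3K27ac peaks. For H3K4me1 it gave 108 of 154238, 125 of 185478 and 111 of 208333.

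The study profiled both marks by ChIP-seq in 3 stages of the in vitro differentiation of C57/BL-6 mouse embryonic stem (ES) cells. These were aNPC (ES-derived neural progenitors grown with EGF and FGF-2), eA (early astrocytes, day 1 in medium with FBS and LIF) and lA (mature astrocytes, day 5 in the same medium). No group of these carried a transgene or a knockdown by the labels. All stages came from cultured ES cells, so no stage represents a brain region, and the 2 replicates of each stage and mark had been merged into 1 list before peaks were called. No error between cultures can therefore be given, and every difference between stages below compares 6 lists and was not tested.

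Homeobox genes encode transcription factors that bind DNA through a homeodomain. Pax6, Emx1, Emx2 and Lhx2 specify the dorsal telencephalon, the region that becomes the cerebral cortex. Otx1 and Otx2 act in the forebrain and midbrain, Gbx2 acts in the anterior hindbrain, and the border between Otx2 and Gbx2 positions the isthmic organiser, the signalling centre around which En1 and En2 pattern the midbrain and cerebellum. H3K27ac marks active promoters and enhancers, and H3K4me1 marks enhancers whether or not they are active.

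The sequence around the H3K27ac summit is printed for 6 peaks that carry the patterns described below, all of them distal except the promoter peak of Emx2. They were chosen after the values were seen. Each run is 300 bases of the plus strand of mm9, written 5′ to 3′. Positions after a gene name are kb from the first coding start site of the gene, positive in the direction of transcription. The runs lie at chr2:105576007-105576306 (Pax6, intron of Elp4), chr19:59532578-59532877 (Emx2, shared start region with the divergent noncoding gene Emx2os, whose exon it overlaps), chr14:49245530-49245829 and chr14:49330187-49330486 (Otx2, intergenic), chr1:91777880-91778179 (Gbx2, intron of Agap1), and chr5:28501642-28501941 (En2, intergenic). Capitals mark exact matches, on either strand, to 1 of 6 motifs: TAATTA (homeodomain core), TAATCC (the core of bicoid-type homeodomains such as those of Otx1 and Otx2), TTGGCA (NF1 half-site), TGANTCA (AP-1), TGTGGT (Runx) and CCATTGT (Sox).
Pax6 +67.1, lA summit: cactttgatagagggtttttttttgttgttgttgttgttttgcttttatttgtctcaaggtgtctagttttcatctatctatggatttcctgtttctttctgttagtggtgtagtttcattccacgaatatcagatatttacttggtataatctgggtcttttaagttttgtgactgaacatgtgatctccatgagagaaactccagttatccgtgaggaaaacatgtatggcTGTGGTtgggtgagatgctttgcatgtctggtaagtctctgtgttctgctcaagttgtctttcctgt
Emx2 -0.452, lA summit: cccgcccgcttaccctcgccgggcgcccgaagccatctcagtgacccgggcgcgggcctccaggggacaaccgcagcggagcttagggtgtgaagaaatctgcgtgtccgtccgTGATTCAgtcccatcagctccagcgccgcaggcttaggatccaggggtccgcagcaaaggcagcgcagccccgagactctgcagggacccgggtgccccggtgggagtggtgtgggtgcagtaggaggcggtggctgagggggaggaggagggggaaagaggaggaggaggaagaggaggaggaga
Otx2 +41.6, lA summit: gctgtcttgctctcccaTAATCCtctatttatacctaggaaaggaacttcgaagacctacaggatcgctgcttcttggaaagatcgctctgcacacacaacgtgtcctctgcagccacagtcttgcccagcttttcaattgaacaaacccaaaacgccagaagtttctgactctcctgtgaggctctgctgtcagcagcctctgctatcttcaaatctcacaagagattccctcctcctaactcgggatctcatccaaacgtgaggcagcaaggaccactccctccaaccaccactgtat
Otx2 -43.0, lA summit: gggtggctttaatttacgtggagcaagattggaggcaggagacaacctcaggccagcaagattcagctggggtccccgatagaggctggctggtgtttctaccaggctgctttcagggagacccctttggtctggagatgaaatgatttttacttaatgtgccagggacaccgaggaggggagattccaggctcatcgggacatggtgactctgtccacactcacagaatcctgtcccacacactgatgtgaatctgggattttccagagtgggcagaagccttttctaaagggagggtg
Gbx2 +51.8, lA summit: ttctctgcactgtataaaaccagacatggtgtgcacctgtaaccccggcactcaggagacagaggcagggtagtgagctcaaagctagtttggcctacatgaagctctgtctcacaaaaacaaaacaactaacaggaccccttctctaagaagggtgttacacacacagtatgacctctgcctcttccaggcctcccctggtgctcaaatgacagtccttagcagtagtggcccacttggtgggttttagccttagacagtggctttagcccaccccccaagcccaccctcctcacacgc
En2 +9.56, eA summit: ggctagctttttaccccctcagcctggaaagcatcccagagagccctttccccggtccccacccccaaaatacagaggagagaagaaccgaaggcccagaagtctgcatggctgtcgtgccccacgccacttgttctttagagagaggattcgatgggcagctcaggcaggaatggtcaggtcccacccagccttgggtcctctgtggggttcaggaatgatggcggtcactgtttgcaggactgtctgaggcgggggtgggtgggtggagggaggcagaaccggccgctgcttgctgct

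Of the 6 runs, 3 held a match. The Pax6 run held 1 TGTGGT, the Emx2 run 1 TGANTCA, and the Otx2 run at +41.6 kb 1 TAATCC. No match overlapped another motif. The same 300-base window around the summit of all lA H3K27ac peaks held TAATTA in 5.51% of peaks, TAATCC in 9.08%, TTGGCA in 16.3%, TGANTCA in 8.73%, TGTGGT in 19.9% and CCATTGT in 4.03%. In the eA list the shares were 5.87%, 8.56%, 17.4%, 8.98%, 18.8% and 3.93% in that order. The Emx2 run stood out by base composition, with 68% G or C and 22 CpG dinucleotides, against 2 to 9 CpG in the other 5 runs. The Pax6 run was the most A and T rich, with 37.7% G or C.

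With the promoter edges used here, promoter peaks split the 9 genes into a group with H3K27ac at every stage and a group without it. Promoters were taken to run from 1 kb before each coding start site to 100 bp past it. Pax6, Emx2, Lhx2, Otx1, Gbx2 and En1 had an H3K27ac promoter peak at all 3 stages, so that the count was 6 of 9 throughout. Emx1, Otx2 and En2 had none at any stage. The split depends on the promoter edge. En2 had an H3K27ac region just past it at all stages, and the lA call of Gbx2 rests on an overlap of 1 bp. With a promoter of 1 kb on either side the count was 7 of 9 at every stage. Of all coding genes, such a peak was at 50.6% (aNPC), 53.2% (eA) and 48.2% (lA). H3K4me1 overlapped a promoter of 8 of the 9 genes at the aNPC stage, 6 at eA and 7 at lA, beside 55.4%, 53.6% and 52.7% of all coding genes. Pax6, Emx1, Lhx2, Otx1, Gbx2 and En2 had H3K4me1 at a promoter at all stages, Emx2 in aNPC alone, and En1 in aNPC and lA. These 2 calls depend on the promoter edge. Just past it, Emx2 had H3K4me1 at +1.11 (aNPC), +1.24 (eA) and +1.06 kb (lA), at percentile 69.8, 69.3 and 63.0. En1 had it in eA at +1.14 kb, at 47.7. With a promoter of 1 kb on either side the H3K4me1 counts were 9, 8 and 8 of 9. Otx2 had a promoter peak of neither mark at any stage. The first start sites of the 9 genes had a median CpG observed-to-expected ratio of 0.691 within 500 bp on each side, beside 0.554 over 22347 coding genes. The ratio was lowest at Otx2, 0.522, and highest at En2, 1.01, both of them genes without an H3K27ac promoter peak as defined here. It was taken at the first start site alone, while a promoter peak counts at any coding start site. Pax6 has 21 of these, Otx2 7, Lhx2 4 and Otx1 2. At Pax6 the promoter regions with H3K27ac lie at +6.22 and +7.71 kb, away from the site of the ratio.

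The number of promoter peaks was smaller in lA, with 11 peaks (aNPC), 11 (eA) and 6 (lA) over the same 6 genes. Over all coding genes the lists held 14899, 16450 and 14325 promoter peaks. Each of these genes kept a single H3K27ac promoter peak in lA. The regions that were acetylated earlier and not in lA lay beside it at Pax6 (+6.22 kb), En1 (-0.450 kb) and Lhx2 (+11.5 and +12.7 kb). At Lhx2 the region at the first start site, +0.307 kb, which lies apart from the kept peak, was not in the lA list either. Its peaks overlapped the promoter by only 28 bp (aNPC) and 16 bp (eA), and 1 Otx1 peak in aNPC by 6 bp. In lA, second peaks at Emx2 (+0.994 kb) and En1 (+1.05 kb) lay within the span of the earlier promoter peaks but counted as distal. The number of promoter peaks thus depends in part on the promoter edge and on how peaks are split. A peak that is missing from a list did not reach the peak caller's default threshold. Fewer cells carrying the mark and less of it per cell cannot be told apart in these bulk profiles.

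The rank of a peak is given here as its percentile, the share of peaks in its own list with an equal or lower −log10 q, because the −log10 q itself depends on the depth of each list. A percentile is a rank within a list, and the lists differ in length, so that it can be higher at a later stage where the peak's own −log10 q is lower. At Otx2 -43.0 kb the percentile was 78.8, 85.1 and 90.0 while the −log10 q was 34.9, 45.9 and 32.6. The strongest promoter regions kept a high rank at every stage. The Pax6 region at +7.71 kb, which overlaps an internal start site of the gene, was at percentile 96.3 (aNPC), 97.7 (eA) and 96.7 (lA). The Otx1 region at +0.908 kb was at 95.6, 93.4 and 93.5. The Emx2 region at -0.452 kb was at 89.2, 93.3 and 94.3. The En1 promoter peak, with its summit at +0.439 kb in aNPC, was lower, at 86.5, 72.7 and 74.0. In lA a separate peak at +1.05 kb, past the promoter, was at 82.4. At Gbx2 the promoter peak lay upstream of the start site, at -1.28 kb, at percentile 61.8, 60.4 and 35.6, lower than the strongest promoter region of each of the other 5 genes at every stage. It overlapped the promoter by 209 bp (aNPC), 47 bp (eA) and 1 bp (lA), with its summit further upstream, so that the lA call of Gbx2 rests on 1 base.

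**Figure D1:**
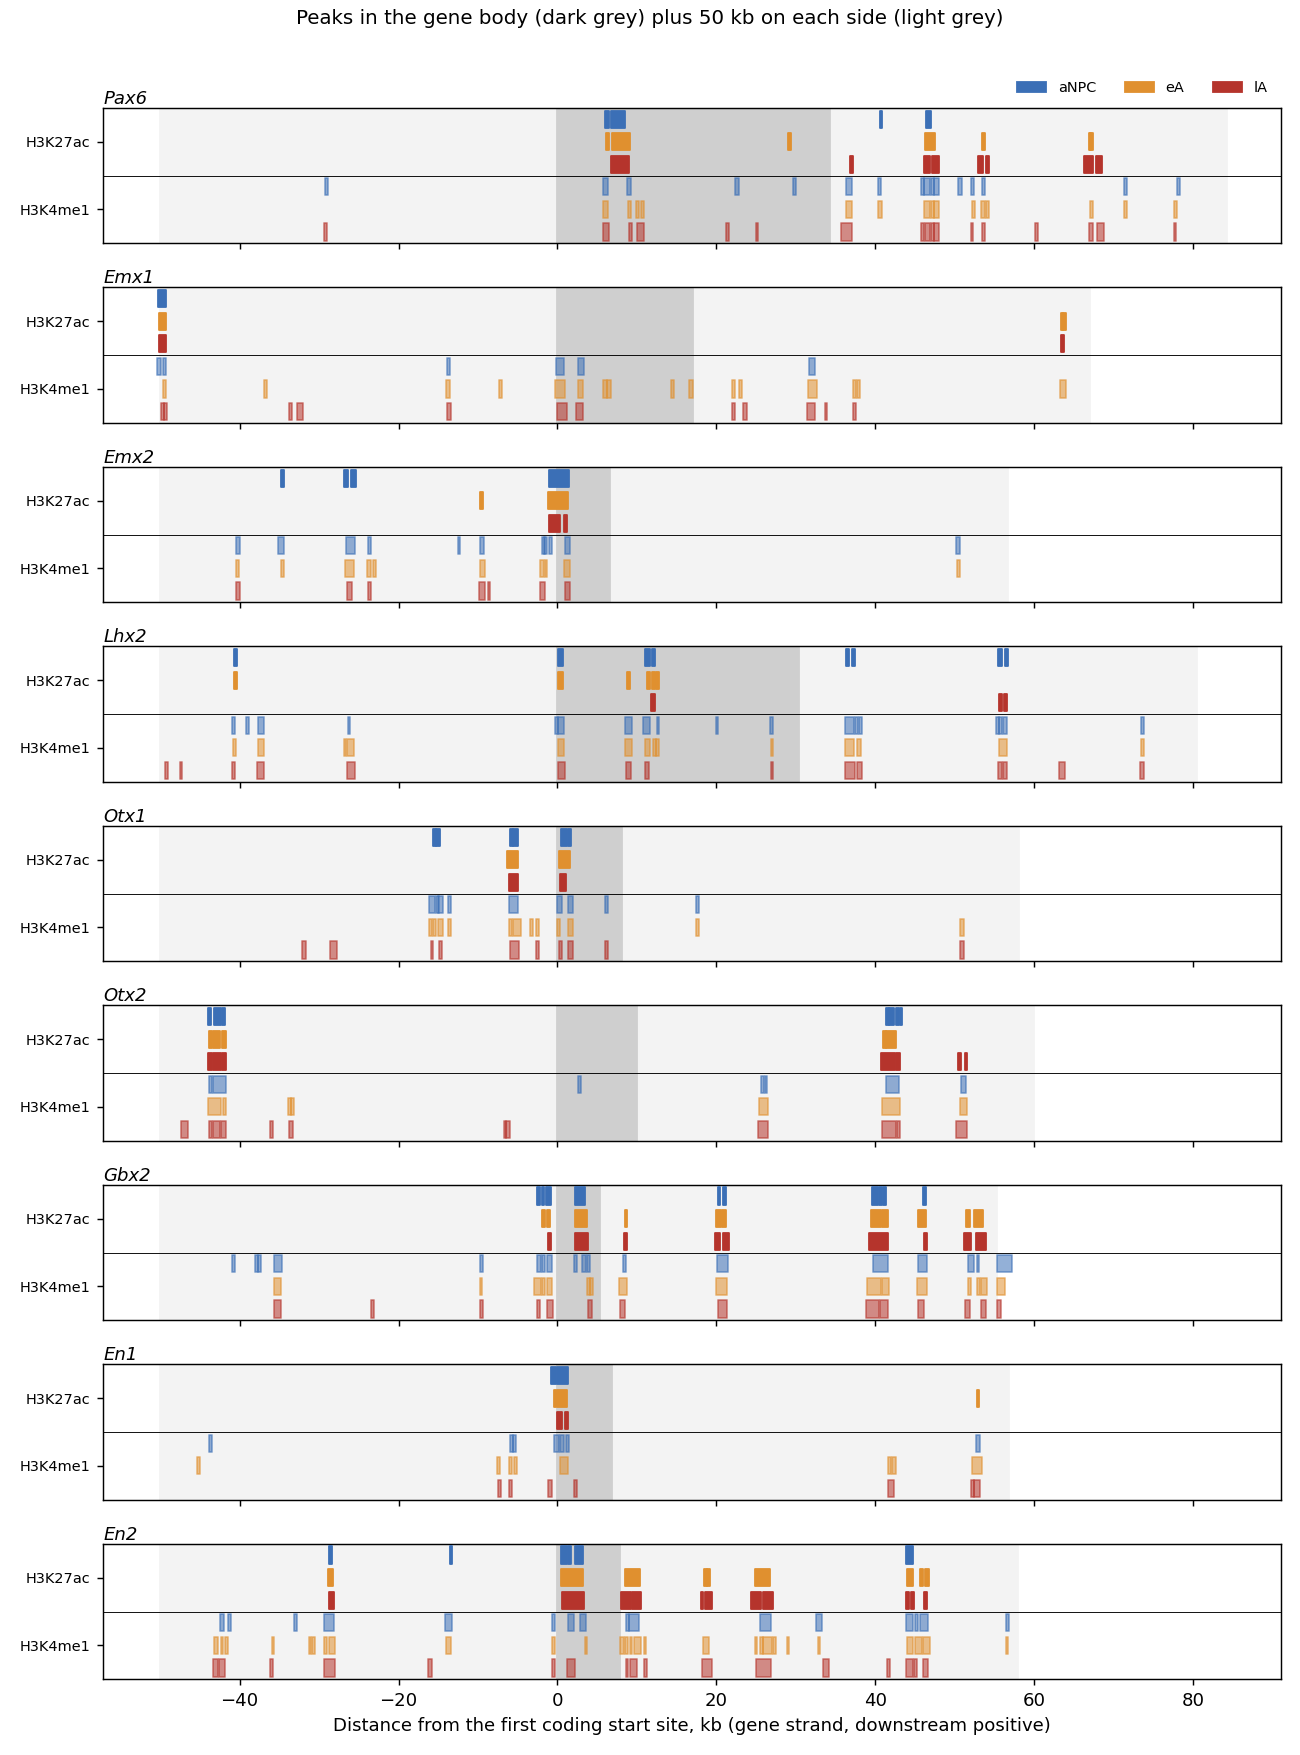
Peaks of H3K27ac (upper tracks of each panel) and H3K4me1 (lower tracks, paler) at the 9 genes in aNPC (blue), eA (orange) and lA (red), by distance in kb from the first coding start site along the gene's strand. Dark grey is the gene body, light grey the window, and peaks under 0.35 kb are drawn 0.35 kb wide so that they can be seen. Otx2 has H3K27ac only far from the gene, En2 has H3K27ac downstream of the gene in eA and lA that is not in aNPC, and Emx1 has H3K27ac only at the window's ends.

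Over the whole windows, the length covered by H3K27ac peaks was larger at each step, aNPC to eA to lA, at 4 of the 9 genes and smaller at each step at 3. Of all coding genes, 22.7% were larger and 15.7% smaller at each step. The larger group was Pax6 (3203, 4614 and 6955 bp), Otx2 (2934, 3026 and 4281 bp), Gbx2 (4403, 8058 and 8414 bp) and En2 (3571, 9154 and 10241 bp). The smaller group was Emx2 (3831, 2753 and 1829 bp), Lhx2 (3441, 2222 and 1275 bp) and En1 (1984, 1525 and 828 bp). In these windows the cortical genes Emx2 and Lhx2 were both in the smaller group while Pax6 was in the larger one, and the paralogs En1 and En2 were in opposite groups. Otx1 (2462, 2780 and 1968 bp) and Emx1 (746, 1152 and 1030 bp) were in neither. With windows of 10 kb on each side, or with peaks nearest to a start site of the gene alone, Gbx2 moved to the smaller group, because most of its H3K27ac in eA and lA lies beyond 10 kb and nearer to the start site of D130058E05Rik, a gene that begins inside Gbx2. With 10 kb on each side Emx2 (2505, 2753 and 1829 bp) and Pax6 (2602, 2669 and 2527 bp) were in neither group. With lists cut to equal length, Otx2 was in neither group, since its covered length in eA was then 2845 bp.

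**Figure D2:**
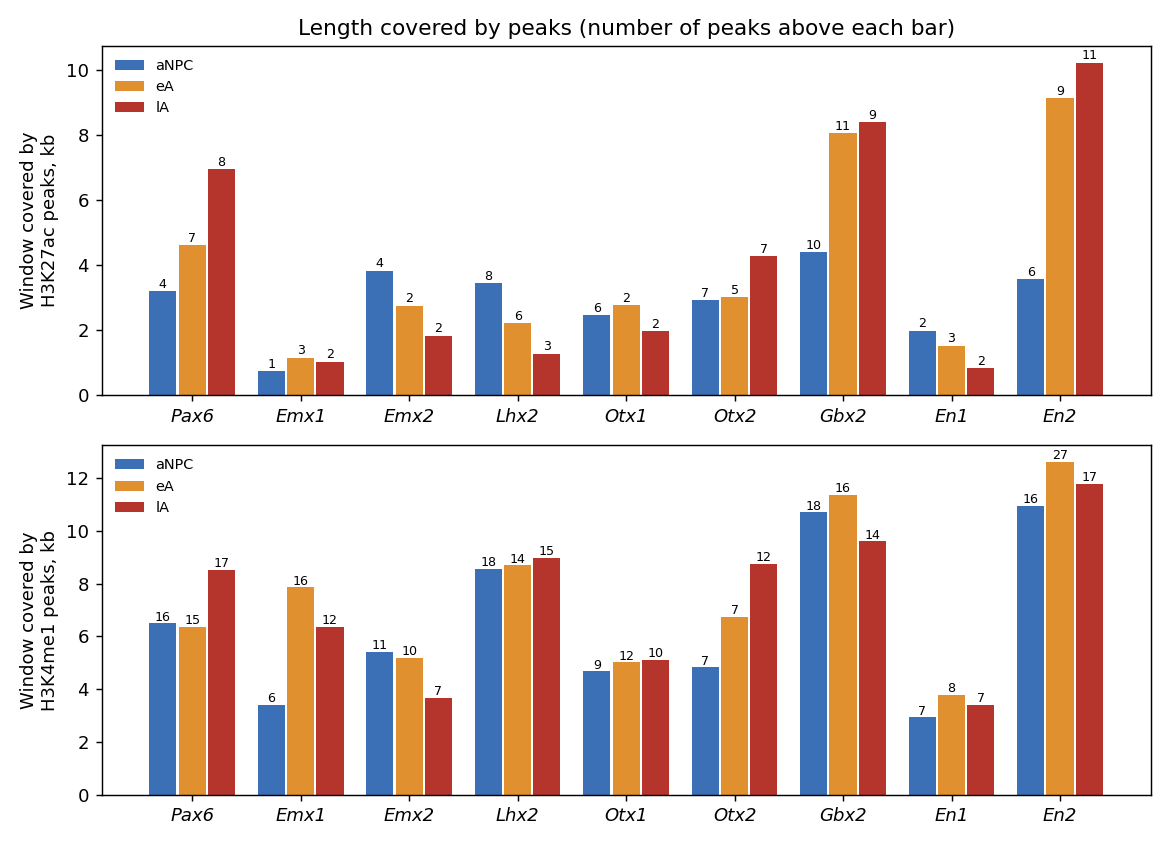
Length of each gene's window, in kb, covered by H3K27ac peaks (top) and H3K4me1 peaks (bottom) in aNPC, eA and lA, with the number of peaks above each bar. There is 1 merged list per bar and so no error bar. H3K27ac length at En2 goes from 3571 bp in aNPC to 10241 bp in lA, and at Lhx2 from 3441 to 1275 bp.

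Per gene, the median H3K27ac peak count was 6 (aNPC), 5 (eA) and 3 (lA), beside 5, 6 and 6 over all coding genes with windows of the same kind. The covered share of the window had a median of 2.64%, 2.58% and 1.82% over the 9 genes and of 2.44%, 2.70% and 2.73% over all coding genes. For H3K4me1 the median count was 11, 14 and 12 over the 9 genes and 11, 13 and 14 over all coding genes.

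Among the cortical genes, Pax6 had H3K27ac in a run of sites inside Elp4, the neighbouring gene that encodes a subunit of Elongator and whose introns are known to hold distant Pax6 enhancers. Its H3K27ac peaks numbered 4 (aNPC), 7 (eA) and 8 (lA). A region at +46.6 kb was acetylated at all stages, at percentiles 58.7, 80.2 and 74.98. A region at +67.1 kb had no H3K27ac in aNPC and was at percentile 54.2 in eA and 87.8 in lA, and its H3K4me1 was likewise absent from the aNPC list, at 41.8 in eA and 82.5 in lA. The neighbouring site at +67.9 kb had both marks in lA alone, with H3K4me1 at percentile 97.1. A region at +53.6 kb differed from these, since H3K4me1 was there in aNPC at percentile 62.0 while H3K27ac came first in eA, at 34.6. At +46.6 kb the H3K4me1 peak was at percentile 76.8 (aNPC), 86.9 (eA) and 99.3 (lA). In all, 6 of the 8 distal H3K27ac regions of Pax6 were absent from aNPC, and 2 of these 6 already had H3K4me1 there.

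Emx1 and Emx2, paralogs with overlapping roles in the growth and arealisation of the cortex, had different chromatin. At Emx1 no H3K27ac peak lay within the gene or within 10 kb of it at any stage. Its strongest H3K27ac peak, at percentile 94.5, 95.7 and 92.6, lay at -49.9 kb, where it straddles the edge of the window over the promoter of Spr, the gene for sepiapterin reductase. A weak region at +63.6 kb in an intron of Sfxn5 was at percentile 26.6 in eA and 36.2 in lA. H3K4me1 did cover the Emx1 start site, at percentile 88.4 (aNPC), 93.2 (eA) and 80.1 (lA). The Emx1 window held 6, 16 and 12 H3K4me1 peaks, and 8 distal H3K4me1 regions without H3K27ac were in the eA list alone.

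Emx2 kept its promoter region while its other H3K27ac was in aNPC or eA only. In aNPC it had 4 H3K27ac peaks, of which 3 lay upstream at -34.6, -26.5 and -25.9 kb with percentiles of 31.2, 31.7 and 38.4. These 3 regions had no H3K27ac in eA or lA. H3K4me1 remained over the sites at -26.5 and -25.9 kb, at percentile 89.6 (aNPC), 72.1 (eA) and 84.2 (lA), and was missing at -34.6 kb in lA. The promoter peak measured 2505 bp (aNPC), 2487 bp (eA) and 1484 bp (lA). In lA a second peak lay within the stretch that the broader peaks of aNPC and eA cover. At every stage the promoter peak covers the start sites of both Emx2 and Emx2os, so its signal cannot be divided between them.

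Lhx2, a LIM-homeobox gene that acts as a selector of cortical identity, had 8 (aNPC), 6 (eA) and 3 (lA) H3K27ac peaks. At its first start site H3K27ac was at percentile 71.3 in aNPC and 78.3 in eA and was not called in lA. H3K4me1 at the same site was among the strongest of its lists at every stage, at percentile 99.4, 99.9 and 97.5. A second group of start sites about 12 kb downstream held the H3K27ac region that was present throughout, at +12.1 kb and percentile 81.2, 83.7 and 87.6. Beside it, the region at +11.5 kb went from percentile 85.6 in aNPC to 34.9 in eA and no peak in lA. Distal sites at +36.4 and +37.2 kb were acetylated in aNPC alone, at percentile 33.7 and 16.6, and carried H3K4me1 at all stages. The site at +55.7 kb was acetylated in aNPC and lA but not in eA, at percentile 32.3 and 67.3, with H3K4me1 at 89.0, 85.4 and 97.1.

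Otx1 and Otx2 also differed from each other. Otx1 had 6, 2 and 2 H3K27ac peaks. Besides its promoter, a region at -5.31 kb in an intron of Ehbp1 was acetylated at all stages, at percentile 69.3, 78.0 and 80.6. A pair of regions at -14.9 and -15.5 kb was acetylated in aNPC alone, at percentile 37.5 and 41.2.

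All H3K27ac of Otx2, with 7, 5 and 7 peaks, lay more than 40 kb from its first start site, in an interval with no other coding gene. The downstream region at +41.6 kb was at percentile 68.7 (aNPC), 79.1 (eA) and 95.4 (lA). The upstream region at -43.0 kb was at 78.8, 85.1 and 90.0. Both already ranked high for H3K4me1 in aNPC, at percentile 99.3 downstream and 98.9 upstream. In eA these H3K4me1 values were 99.1 and 97.8 and in lA 99.5 and 91.5. The lists do not say which gene these regions act on. The single H3K4me1 peak within the Otx2 body, at +2.72 kb in an intron, was in aNPC alone at percentile 24.6. Its summit lies 317 bp from a start site of the gene, and with a promoter of 1 kb on either side it would count as a promoter peak, so that 9 of 9 genes would have one in aNPC.

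Gbx2 had the most H3K27ac peaks of the 9 genes in aNPC and eA, with 10 and 11, and 9 in lA. Close to the gene, the upstream sites became fewer, since the region at -1.86 kb was in aNPC and eA and the region at -2.22 kb in aNPC alone. Inside the gene, a region at +2.88 kb was at percentile 83.0, 94.2 and 93.2, and it covers the start of D130058E05Rik as well as exonic sequence of Gbx2. Downstream, a region at +40.0 kb in Agap1, which encodes a GTPase-activating protein, was at percentile 56.7 (aNPC), 85.8 (eA) and 94.9 (lA). The regions at +51.8 and +52.8 kb had no H3K27ac in aNPC. The first was at percentile 79.1 in eA and 95.7 in lA, and the second at 83.1 and 91.8. H3K4me1 was present at both in aNPC, at percentile 55.5 and 53.9. The regions at +20.9 and +20.1 kb were at percentile 25.9 and 20.2 in aNPC, 68.8 and 48.0 in eA and 58.8 and 44.1 in lA. The 3 distal H3K27ac regions of Gbx2 first seen after aNPC had H3K4me1 in aNPC. Over the 9 windows 13 of 21 such regions did, beside 49.2% of all such regions in the lists, and 3 regions are too few to set Gbx2 apart. Upstream, at -35.3 kb within Asb18, H3K4me1 without H3K27ac was at percentile 91.1, 95.6 and 68.6.

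**Figure D3:**
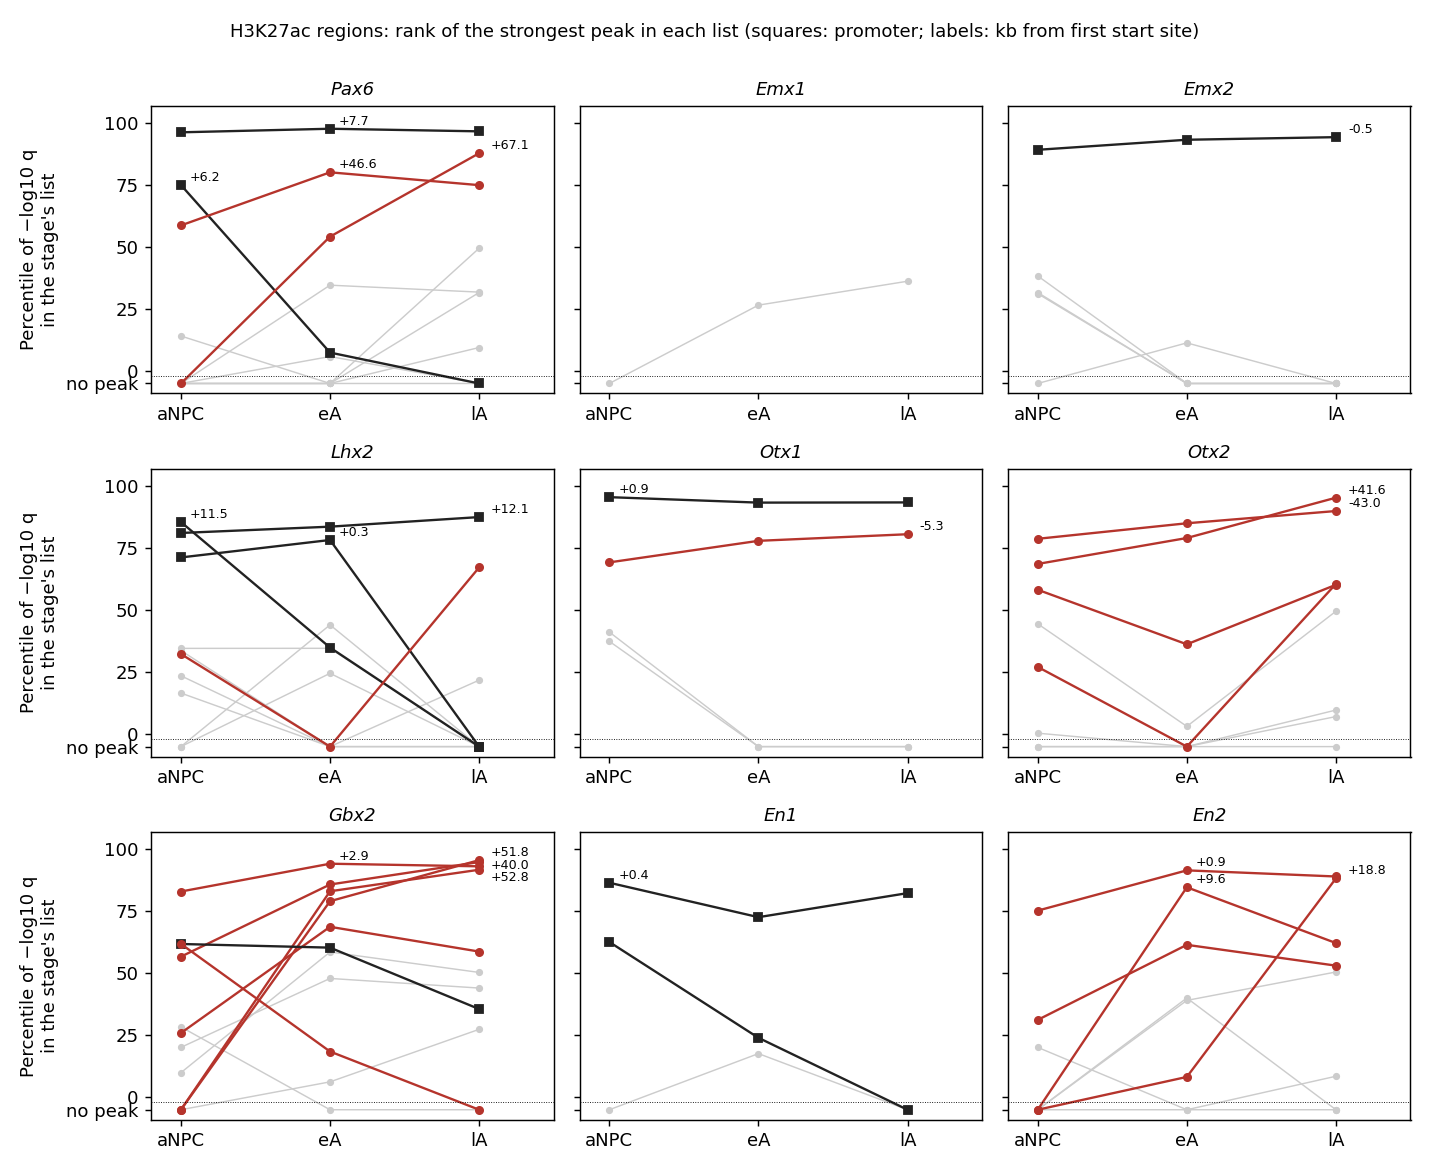
Percentile of −log10 q, within the list of each stage, of the strongest H3K27ac peak in each region of the 9 windows. Black squares are promoter regions of the gene, red circles other regions that reach percentile 60 at some stage, grey the rest, and numbers give kb from the first start site for regions that reach percentile 75. The Spr region at Emx1, the Cnpy1 promoter region at En2 and 1 distal region of En2 are left out. Otx2 +41.6 and En2 +18.8 end at 95.4 and 88.3 in lA, and the Lhx2 region at +11.5 kb ends with no peak.

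En1 and En2 diverged in the number of H3K27ac peaks, with 2, 3 and 2 at En1 and 6, 9 and 11 at En2. At En1, acetylation was nearly confined to the start site. The region at -0.450 kb was at percentile 62.7 in aNPC and 24.0 in eA and was not called in lA, and the one distal region, at +52.8 kb, was in eA alone at 17.6. No other annotated gene overlaps the En1 window.

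At En2 no H3K27ac overlapped the promoter, but a region that begins within the first exon, with its strongest summit at +0.876 kb, was acetylated at all stages. It was made of 3 peaks in aNPC and had percentiles of 75.3, 91.5 and 89.1. With a promoter of 1 kb on either side of the start site it would count as a promoter peak. Downstream of the gene, further regions were absent from aNPC and strong at a later stage. The region at +9.56 kb was at percentile 84.7 in eA and 62.2 in lA. The region at +18.8 kb was at 8.23 in eA and 88.3 in lA. H3K4me1 was already called in aNPC at +9.56 kb, at percentile 54.1, and not at +18.8 kb. The H3K27ac region at +44.6 kb belongs to the promoter of Cnpy1, the downstream neighbour, and was at percentile 43.6 in aNPC and 60.4 in eA. In lA the peak over that promoter was at 32.0 and a separate peak beside it at 39.4. Upstream at -42.1 kb, H3K4me1 without H3K27ac was at percentile 41.7 (aNPC), 42.1 (eA) and 99.7 (lA).

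Joined across stages, the windows held 49 distal H3K27ac regions, where distal means that the region overlaps no promoter of a coding gene. Of these, 12 were acetylated at all stages, 11 in aNPC alone, 10 in eA and lA, 6 in lA alone, 5 in eA alone, 3 in aNPC and lA, and 2 in aNPC and eA. The regions of a single stage all ranked low, at percentile 0.417 to 41.2 (aNPC), 5.87 to 40.1 (eA) and 7.11 to 49.5 (lA). Some neighbours lay under 1 H3K4me1 peak of aNPC and may be parts of 1 site. Examples are Emx2 -26.5 and -25.9 kb and Lhx2 +36.4 and +37.2 kb. Pax6 and En2 each had 6 of the 21 regions first acetylated after aNPC, and Gbx2 had 3. Emx2 and Lhx2 each had 3 of the 13 that were acetylated in aNPC and not in lA. Only 1 distal region, at Pax6 +29.2 kb, had no H3K4me1 peak at any stage. Over the 115804 distal regions of the whole lists, joined in the same way, 19.2% were acetylated at all stages, 23.9% in aNPC alone, 48.7% first after aNPC and 28.4% in aNPC and not in lA. The shares in the 9 windows were 24.5%, 22.4%, 42.9% and 26.5%. Regions without H3K4me1 at any stage made up 12.8% of the whole and 2.04% in the windows, which is the 1 region of 49.

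**Figure D4:**
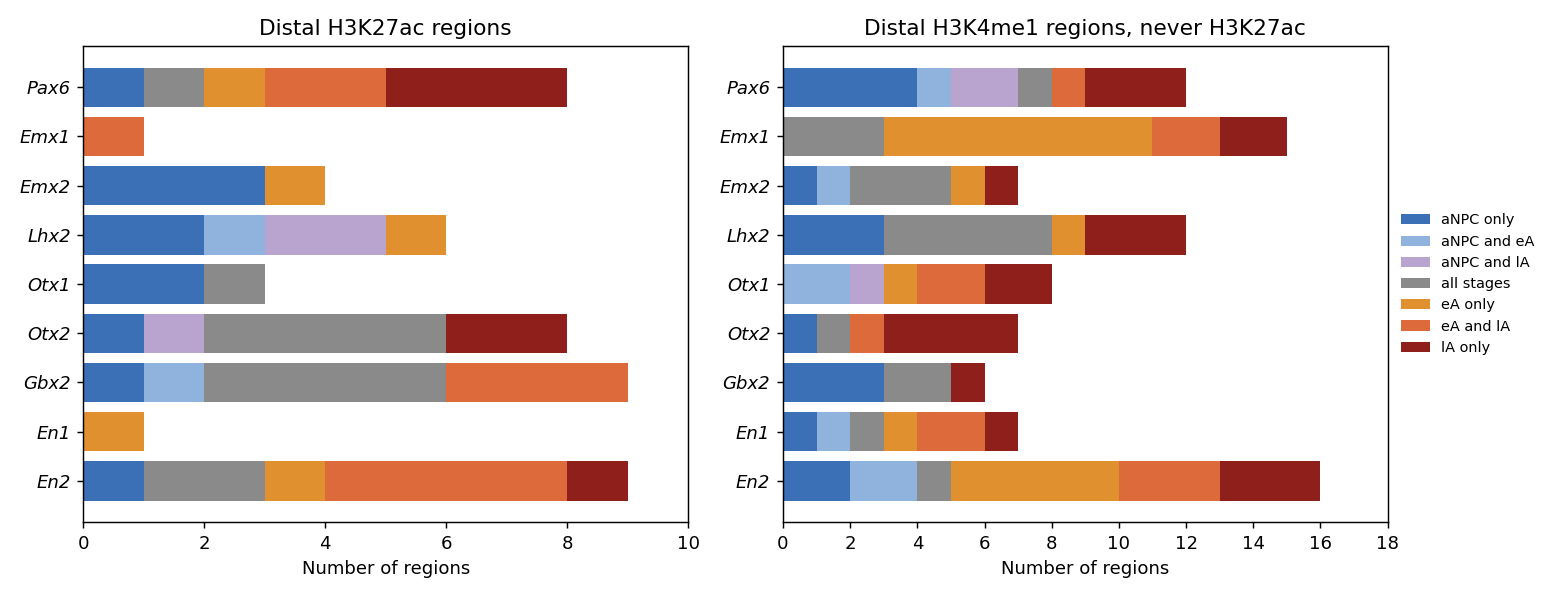
Number of distal regions in each gene's window by the stages at which they were called, for H3K27ac (left) and for H3K4me1 regions that had no H3K27ac at any stage (right). Emx2, Lhx2, Otx1 and Gbx2 hold regions of aNPC alone and none of lA alone on the left, and En2 and Gbx2 hold 4 and 3 regions shared by eA and lA.

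Counted by peak, 13 of the 34 distal aNPC H3K27ac peaks in the windows (38.2%) had no H3K27ac in lA, beside 52.5% of all distal aNPC peaks. Of these 13, 7 overlapped an H3K4me1 peak in lA (53.8%), beside 55.4% of all such peaks. In the other direction, 19 of the 37 distal lA H3K27ac peaks (51.4%) had none in aNPC, beside 57.9% over the list. Of these 19, 12 overlapped an H3K4me1 peak of aNPC (63.2%), beside 46.5%. With peaks nearest to a start site of the gene alone the count was 6 of 13, no longer above that share. The 12 came from the windows of En2 (5), Pax6 (3), Gbx2 (3) and Otx2 (1), and neighbouring peaks can share 1 H3K4me1 peak. Of the 89 distal H3K4me1 peaks of aNPC, 45 (50.6%) met no H3K27ac at any stage, beside 46.9% over the list. Each of these shares rests on few peaks, so that a handful of peaks would move it.

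The promoters of 33 other patterning genes were read the same way. H3K27ac was at a promoter of 8 of them at the aNPC stage, 9 at eA and 7 at lA, and 23 had it at no stage, beside the 50.6%, 53.2% and 48.2% of all coding genes given above. H3K4me1 was at a promoter of 22, 21 and 23, beside 55.4%, 53.6% and 52.7%. Among 13 cortical and dorsal forebrain genes, Dmrta2, Nr2f1, Nr2f2 and Gli3 had H3K27ac at all stages and Eomes, which marks intermediate progenitors, in aNPC and eA. Among 7 genes of the anterior neural plate and eye field none had it at all stages, while Six3 had it in eA and Zic1 in eA and lA. Among 13 midbrain and isthmus genes, Irx2 and Irx3 had it at all stages and Pou3f4 in aNPC. The other 10 had H3K27ac at no stage. Of these, the isthmic signals Fgf8 and Wnt1, Pax2 and Pax5, which act with the En genes, and Barhl1 and Tal2 had H3K4me1 at a promoter at all stages, and Lmx1b in aNPC and lA. Fgf17, another isthmic signal, Pax8 and Sp5 had neither mark at any stage.

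Stage markers were also read at promoters. Of those given here, only Gja1, Aqp4 and S100b differed between stages in H3K27ac, so that most of them do not tell the stages apart. Of 3 progenitor genes, Nes and Sox2 had H3K27ac at all stages and Olig2 at none. Of 6 astrocyte genes, Gfap and Slc1a3 had it at all stages, Gja1 in eA and lA, Aqp4 in lA, S100b in aNPC and Aldh1l1 at none. Of 3 neuron genes, Tubb3 had it at all stages and Dcx and Rbfox3 at none. The pluripotency genes Pou5f1 and Nanog had neither mark at any stage. The lists hold 79413 to 92700 H3K27ac peaks and 154238 to 208333 H3K4me1 peaks, and the read depth behind them is unknown.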

How the data were processed

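H3K27ac and H3K4me1 were read from the 6 deposited peak lists, 1 per mark and stage. The authors aligned reads uniquely to mm9 with Bowtie, merged the 2 replicates with SAMtools 0.1.19 and called peaks with MACS2 at default settings without an input control. The deposited score is a whole number made from the −log10 q, and the deposited fold is the enrichment at the summit over local background. Of these, only the deposited −log10 q was used, as a percentile within its list. The score and the fold were not used. Mitochondrial peaks were set aside (4 or 5 per list). Read depth is unknown. 1 marker gene and 1 distal region are not reported here. RNA-seq and knockdown samples were not analysed here, and 8 of the 51 samples were not assigned because their labels conflict.

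Genes came from GENCODE M1 on NCBIM37 (mm9), with 46015 coding start sites. Peaks overlapping by at least 1 bp were called shared, and overlapping peaks of 1 mark were joined across stages into regions. The named genes are all 9 members, with their promoter regions and distal regions of high percentile. Other patterning genes are named where H3K27ac marks a promoter, and the midbrain and isthmus genes without it were named after their values were seen. The overlap code was tested on simulated data. Members, lists and alternatives were chosen with earlier results of these data known. Alternatives were a −log10 q of at least 5, lists of equal length, other windows and promoters, nearest start site, joined peaks and a stricter overlap. No test was run, since each list is 1 merged sample. Python 3.11.15, NumPy 2.4.6 and matplotlib 3.10.9 were used.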

Additional observations from a re-analysis of the deposited data

How the results depend on the processing

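No paired analysis was possible because both replicates of each stage and mark were merged before peaks were called, and for the same reason no replicate was left out. Of 103 values recomputed, 77 stayed within 1.5 times. A −log10 q of at least 5, lists of equal length and wider promoters moved no count beyond that.

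The window size moved most counts. With 10 kb on each side the H3K27ac peaks were 22, 20 and 15 in aNPC, eA and lA and the H3K4me1 peaks 47, 52 and 41. With 100 kb they were 81, 89 and 90, and 176, 217 and 210. The distal aNPC H3K27ac peaks absent from lA were 5 with 10 kb and 26 with 100 kb, of which 3 and 16 overlapped H3K4me1 in lA. The distal lA H3K27ac peaks absent from aNPC were 4 and 43, of which 4 and 26 overlapped H3K4me1 in aNPC. The distal aNPC H3K4me1 peaks without H3K27ac were 15 and 72. With 10 kb, the H3K27ac covered length was larger at each step at 1 gene, En2, in place of 4. Pax6, Emx2 and Otx2 were then in neither group, since at Otx2 no H3K27ac lies within 10 kb. With 100 kb, Otx2 and Gbx2 were in neither group and Emx1 joined the larger one, as it also did with a −log10 q of at least 5. Here the smaller or wider window itself changes the number of peaks.

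Joining peaks closer than 500 bp left 30 H3K27ac peaks in aNPC. With an overlap of at least 50% of the shorter peak, 4 of 14 distal aNPC H3K27ac peaks absent from lA overlapped H3K4me1 in lA. With peaks nearest to a start site of the gene alone, 6 of 13 distal lA peaks absent from aNPC had H3K4me1 in aNPC, since peaks nearer to a start site of another gene are then left out. The alternatives for covered length, for earlier H3K4me1 and for marks within 500 bp of each other were chosen after seeing the data.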

Other observations

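Beyond the windows, from 50 to 100 kb from the gene bodies, lay 33 (aNPC), 41 (eA) and 44 (lA) further H3K27ac peaks, of which 3 at each stage overlapped a promoter of another gene. Pax6 held more of them than any other of the genes, with 12, 11 and 13 and none at a promoter. Gbx2 had 6, 10 and 10. En1 had none and Otx1 had 1, in eA.

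At Emx1, whose own window is nearly free of H3K27ac, strong regions lay further out in introns of Sfxn5, nearest to a start site of that gene. At 108.3 kb downstream of the Emx1 start site the peak was at percentile 92.7 (aNPC), 93.8 (eA) and 96.9 (lA). Near 115 kb the strongest peak was at percentile 98.5, 93.2 and 97.8. At Pax6 the strongest peak of the outer interval was in lA, 63.6 kb upstream of the first start site in intergenic sequence, at percentile 91.3. The lists do not say which gene these sites act on.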
